A study of Arabidopsis thaliana with 6 samples.

Results

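The cytochrome P450 genes of Arabidopsis thaliana were followed across the 6 Affymetrix ATH1 arrays of the study, which cover EST-induced and mock-treated GRF9-IOE plants. Members were taken by symbol, namely every gene whose annotated symbol begins with CYP and a digit and which has a probe set paired with it alone. The rule found 26 of 13356 genes. By their names and annotation 24 of these are P450 genes. The other 2, CYP71 (AT3G44600) and CYP59 (AT1G53720), are cyclophilins, protein-folding enzymes that carry the same letters, and they are described apart. Of the 24 P450 genes 19 belong to family CYP71, all of them to its subfamily B, and families CYP51, CYP78, CYP79, CYP84 and CYP718 have 1 gene each. The reference annotation TAIR10.1 of RefSeq holds 237 genes with such a symbol, so the 24 genes are a small and one-sided sample of the superfamily, and the others are not analysed here.

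All 6 samples carry the same transgene, an estradiol-inducible construct (GRF9-IOE) that switches on the transcription factor GRF9. EST samples received 10 µM estradiol (EST), and mock samples ethanol, given as 0.1% in the labels. EST and mock seedlings were 2 weeks old, grew on MS plates and were sampled after 3 h and 4 h. EST and mock leaves were mature leaves detached from soil-grown plants that the labels give as 40 days old, and were sampled after 6 h. Each condition has 1 array. No EST-treated plants without the transgene were among the samples, so effects of GRF9 and of the inducer cannot be told apart, and GRF9 is not represented on the ATH1 array, so its induction could not be checked here.

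P450 enzymes are heme-containing monooxygenases, mostly anchored in the membrane of the endoplasmic reticulum, which draw electrons from NADPH through a P450 reductase and insert oxygen into small molecules. In plants they act in the synthesis and breakdown of hormones, sterols, pigments, cell wall precursors and defence compounds. The CYP71 family is large in Arabidopsis, and CYP71B genes often lie side by side on the chromosomes. For many CYP71B genes no substrate is firmly known, and for those no role is given here.

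The signals of replicate-like arrays were close. Over all genes the correlation was 0.995 to 0.997 among the 4 seedling arrays, 0.993 between the 2 leaf arrays and 0.913 to 0.929 between leaf and seedling arrays. Values are log2 signals with the same lowest value of 2.15 on every array, so a gene at that value could show an increase but no decrease. Mock seedlings at 4 h differed from mock seedlings at 3 h by 2-fold or more for 0 of 24 P450 genes and for 0.711% of all genes. The SD of this difference between mock arrays was 0.22 over the 24 genes, and the difference ran from -0.60 to 0.58. The 24 include 8 genes within 0.1 of the minimum on all 6 arrays. Their difference was 0, which lowers this SD.

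A signal more than 0.1 above the array minimum was seen on at least 1 array for 16 of the 24 P450 genes. The remaining 8 (33.3%) lay within 0.1 of the minimum on all 6 arrays, against 31.8% of all genes. They were CYP71B16, CYP71B21, CYP71B27, CYP71B30P, CYP71B31, CYP51G2, CYP718 and CYP79A2. CYP71B31 is known to oxidise the floral terpene alcohol linalool, CYP79A2 forms phenylacetaldoxime for benzyl glucosinolate, and CYP51G2 is a relative of the sterol 14-alpha-demethylase CYP51G1. TAIR10.1 classes CYP71B27 and CYP51G2 as transcribed pseudogenes, and CYP71B30P bears a pseudogene name, so 3 of the 24 genes are pseudogenes by biotype or by name, all of them among these 8. A further 6 genes (CYP71B25, CYP71B35, CYP71B36, CYP71B37, CYP71B38 and CYP78A9) were more than 0.1 above the minimum on at least 1 array but below 4 on all arrays. Of these, CYP71B25 and CYP71B37 passed that mark only with EST in seedlings at 3 h, at 2.44 and 2.29. CYP78A9, a relative of the organ-size gene KLU with effects on fruit and seed size, had signals between 2.20 and 2.40. A signal of 6 or more on at least 1 array was reached by 9 P450 genes (37.5%), against 45.4% of all genes, and 8 P450 genes (33.3%) varied by at least 1 over the 6 arrays, against 33.9% of all genes.

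**Figure D1:**
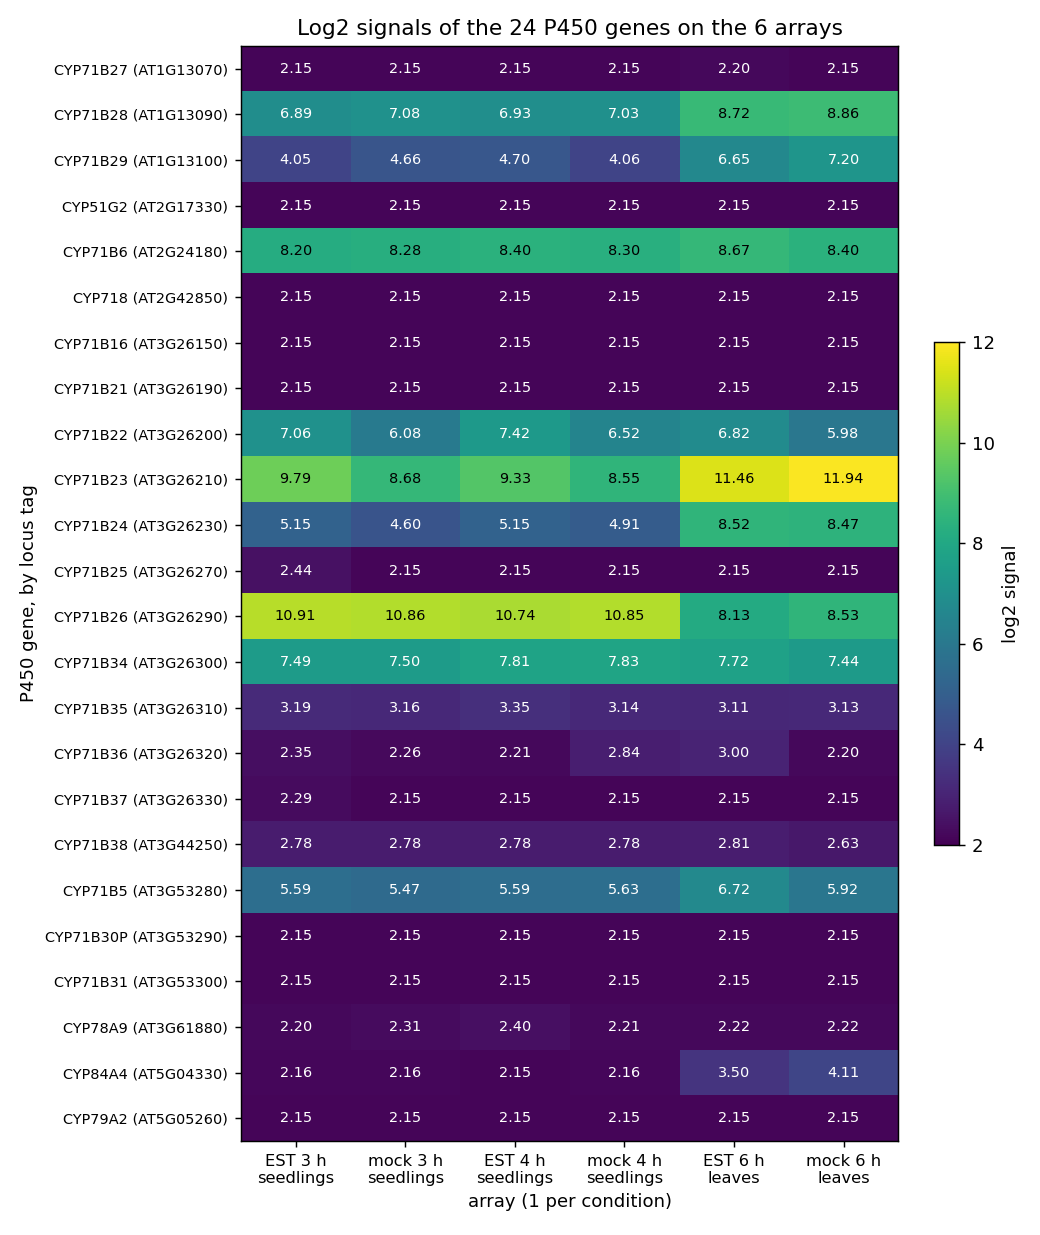
Log2 signals of the 24 P450 genes (rows, by locus tag) on the 6 arrays (columns, 1 per condition), with colour and printed number both giving the log2 signal. In the leaves CYP71B24 stood at 8.52 and 8.47, above all seedlings, and CYP71B26 at 8.13 and 8.53, below all seedlings.

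Few P450 genes differed between EST and mock samples by 2-fold. A difference of 2-fold or more at a single time point was seen once, for CYP71B23 at 3 h, which is 1 of 24 P450 genes (1.13% of all genes were at least 2-fold higher at 3 h). At 4 h no P450 gene was 2-fold higher (0.614% of all genes), and at 6 h none was (1.02% of all genes). None was 2-fold lower at 3 h (0.389% of all genes), at 4 h (0.18%) or at 6 h (1.14%). Over the 3 time points together, 1 P450 gene was 2-fold higher at 1 time point or more (2.37% of all genes) and 0 were 2-fold lower (1.67%). In 2 or more time points 0 P450 genes were 2-fold higher (0.359% of all genes) and 0 were 2-fold lower (0.0374%). With 24 members, these counts are close to what the shares of all genes give. A gene with mock signals less than 1 above the array minimum could not have shown a 2-fold decrease. The median difference over the 16 P450 genes more than 0.1 above the minimum on at least 1 array was 0.05 at 3 h. It was 0 at 4 h and 6 h, beside 0 over all genes at each time point. Because every condition has 1 array, no single time point can be tested.

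A fit over all 6 arrays in limma, in which the 3 EST and mock pairs served as replicates and the time point as a block, called 0 of 24 P450 genes and 0% of all 13356 genes. At an unadjusted p under 0.05 it found 2 P450 genes, CYP71B22 and CYP71B28, beside 4.59% of all genes. The fits without the block, with tissue as the block, with a trend in the prior variance, after quantile normalization and on brighter genes only also called 0 P450 genes. The fit has 2 residual degrees of freedom. On simulated data it recovered 8.5% of the genes changed by 1 in log2, so genes not called were not shown to be unchanged.

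CYP71B22 (AT3G26200) had a similar EST difference at all 3 time points. Its signal was 7.06 with EST and 6.08 in mock seedlings at 3 h, 7.42 with EST and 6.52 in mock seedlings at 4 h, and 6.82 with EST and 5.98 in mock leaves at 6 h. All 3 EST signals lay above all 3 mock signals, which held for 1 of 24 P450 genes and for 0.734% of all genes, while all 3 EST signals lay below all 3 mock signals for 0 P450 genes and 0.27% of all genes. The EST to mock ratios were 1.98-fold, 1.87-fold and 1.79-fold at 3, 4 and 6 h, each just short of 2-fold. Of 13356 genes 9 (0.0674%) had 3 differences that all reached the smallest difference of CYP71B22, itself counted. This cutoff was taken from the gene's own values after they were seen, so a small share was built in and is no test. Its mean difference was 0.91 ± 0.04 (SE, n = 3 pairs), with an adjusted p of 0.642 in limma. The mock seedling arrays differed by 0.44 for this gene, and with those 2 arrays exchanged its differences were 0.55 at 3 h and 1.34 at 4 h. Since all its EST signals lay above all its mock signals, the exchange could not have turned a direction. The near-equal size of the seedling differences did not hold under it.

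CYP71B23 (AT3G26210), the next gene on the chromosome, was higher with EST in both seedling pairs and lower in the leaf pair. Its signal was 9.79 with EST and 8.68 in mock seedlings at 3 h, and 9.33 with EST and 8.55 in mock seedlings at 4 h, ratios of 2.17-fold and 1.72-fold. In leaves it was 11.46 with EST and 11.94 in mock samples, a ratio of 0.717. The leaf difference minus the mean seedling difference was -1.43 ± 0.38 (SE), with an adjusted p of 0.377 in limma, so the 2 tissues were not shown to differ in this response. Its mean difference over the 3 pairs was 0.47 ± 0.45 (SE), with an adjusted p of 0.991. With the mock seedling arrays exchanged the seedling differences were 1.25 and 0.65, against a difference of -0.13 between those mock arrays.

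Both EST seedling signals exceeded both mock seedling signals for 4 of 24 P450 genes (CYP71B22, CYP71B23, CYP71B24 and CYP71B35) and for 12.2% of all genes. CYP71B24 (AT3G26230) had signals of 5.15 with EST and 4.60 in mock seedlings at 3 h, and 5.15 with EST and 4.91 in mock seedlings at 4 h. The larger of these differences, 0.56 at 3 h, is set beside 0.31 between its mock seedling arrays. For CYP71B35 the differences were 0.04 and 0.22 at 3 h and 4 h, and its mock seedling arrays differed by -0.02.

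A lower threshold of 1.5-fold brought in more genes in both directions. At 1 time point or more 5 P450 genes were at least 1.5-fold higher (8.76% of all genes) and 3 were at least 1.5-fold lower (7.11%). Beside CYP71B22 and CYP71B23, the higher ones were CYP71B29 at 4 h (0.64), CYP71B5 at 6 h (0.80) and CYP71B36 at 6 h (0.79). The lower ones were CYP71B29 at 3 h (-0.61), CYP71B36 at 4 h (-0.62) and CYP84A4 at 6 h (-0.60). CYP71B29 and CYP71B36 thus stood in both lists, and their mock seedling arrays differed by -0.60 and 0.58, about as much as EST and mock did. CYP71B5 (AT3G53280) had signals of 6.72 with EST and 5.92 in mock leaves, while its seedling signals lay between 5.47 and 5.63 in all 4 samples. CYP71B28, the other gene at an unadjusted p under 0.05, differed by only -0.19, -0.10 and -0.14 at 3, 4 and 6 h.

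Among the brighter P450 genes that differed by less, CYP71B6 (AT2G24180), which acts in indole defence metabolism downstream of indole-3-acetonitrile, had signals of 8.20 with EST and 8.28 in mock seedlings at 3 h, 8.40 with EST and 8.30 in mock seedlings at 4 h, and 8.67 with EST and 8.40 in mock leaves at 6 h. CYP71B34 (AT3G26300) had 7.49 with EST and 7.50 in mock seedlings at 3 h, 7.81 with EST and 7.83 in mock seedlings at 4 h, and 7.72 with EST and 7.44 in mock leaves at 6 h. Both genes held nearly one level in all 6 samples, with ranges of 0.47 and 0.39 over the arrays.

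**Figure D2:**
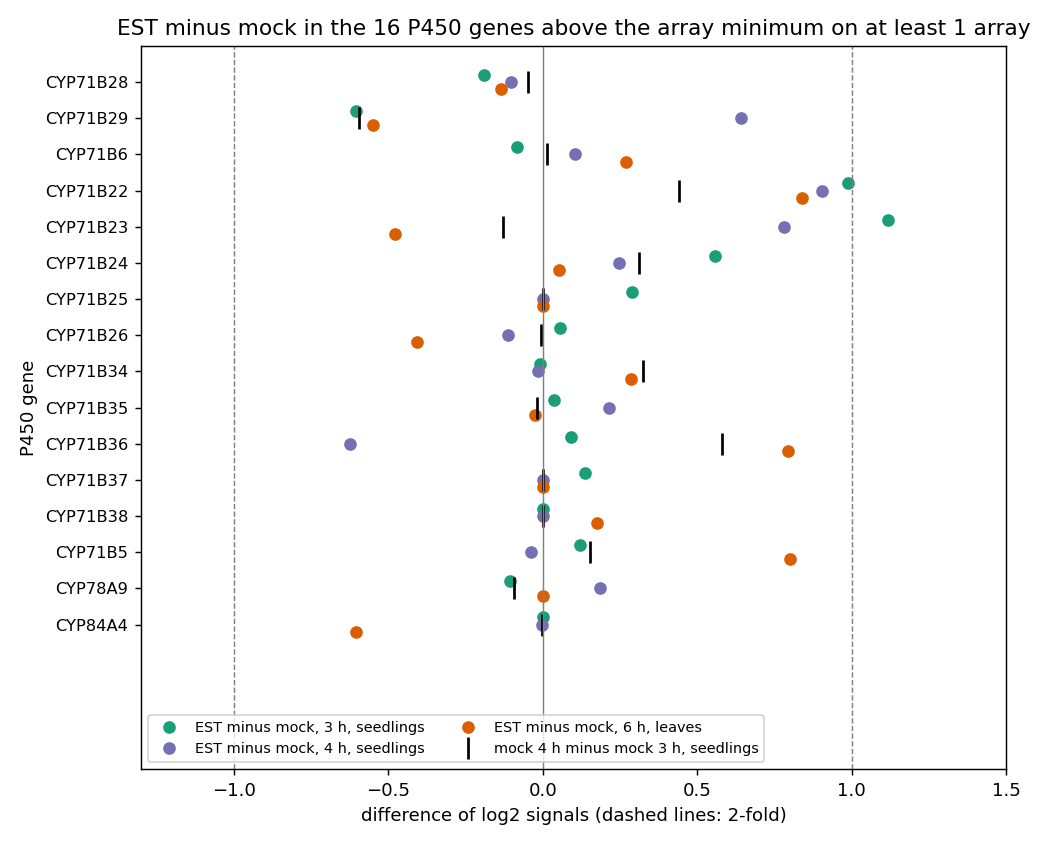
Difference of log2 signals, EST minus mock, at 3 h and 4 h in seedlings and at 6 h in leaves (points) for the 16 P450 genes more than 0.1 above the array minimum on at least 1 array, with mock 4 h minus mock 3 h as a black bar and 2-fold as dashed lines. CYP71B22 has 3 points at 0.99, 0.90 and 0.84, CYP71B23 passes 1 at 3 h only, and for CYP71B29 and CYP71B36 the points fall on both sides of 0.

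The position of the genes was not part of the rule. In TAIR10.1 16 of the 24 P450 genes lie on chromosome 3, and 17 of the 24 have another P450 gene as direct neighbour. The longest stretch, CYP71B16 to CYP71B37 on chromosome 3, holds 24 genes of which 18 are P450 genes and 11 are members, and within it CYP71B16 to CYP71B24 are 10 P450 genes in a row. A stretch of 5 P450 genes on chromosome 1 holds CYP71B27, CYP71B28 and CYP71B29, and a stretch of 5 genes on chromosome 3, 4 of them P450 genes, holds CYP71B5, CYP71B30P and CYP71B31. Neighbouring paralogs of this kind have similar sequences, and how far their transcripts cross-hybridised was not tested.

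Along the chromosome 3 stretch the seedling differences were uneven. In the first block, the 5 members from CYP71B16 to CYP71B24 had differences between 0 and 1.12 at 3 h, between 0 and 0.90 at 4 h and between -0.48 and 0.84 at 6 h. CYP71B22, CYP71B23 and CYP71B24 carried the positive seedling values, while CYP71B16 and CYP71B21 stayed at the minimum. In the second block, the 6 members from CYP71B25 to CYP71B37 had differences between -0.01 and 0.29 at 3 h, between -0.62 and 0.22 at 4 h and between -0.41 and 0.79 at 6 h, and 4 of these 6 were below 4 on all arrays. No test was made between the blocks, since the split was seen in the values and neighbours are not replicates.

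A probe set shared by CYP71B19 and CYP71B20, which lie just before CYP71B21, was outside the rule because it cannot tell these genes apart. Its signal was 8.09 with EST and 7.77 in mock seedlings at 3 h, 8.47 with EST and 7.81 in mock seedlings at 4 h, and 9.89 with EST and 9.96 in mock leaves at 6 h. The differences of 0.31, 0.66 and -0.07 set both EST seedling signals above both mock seedling signals, with the leaf pair nearly level.

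**Figure D3:**
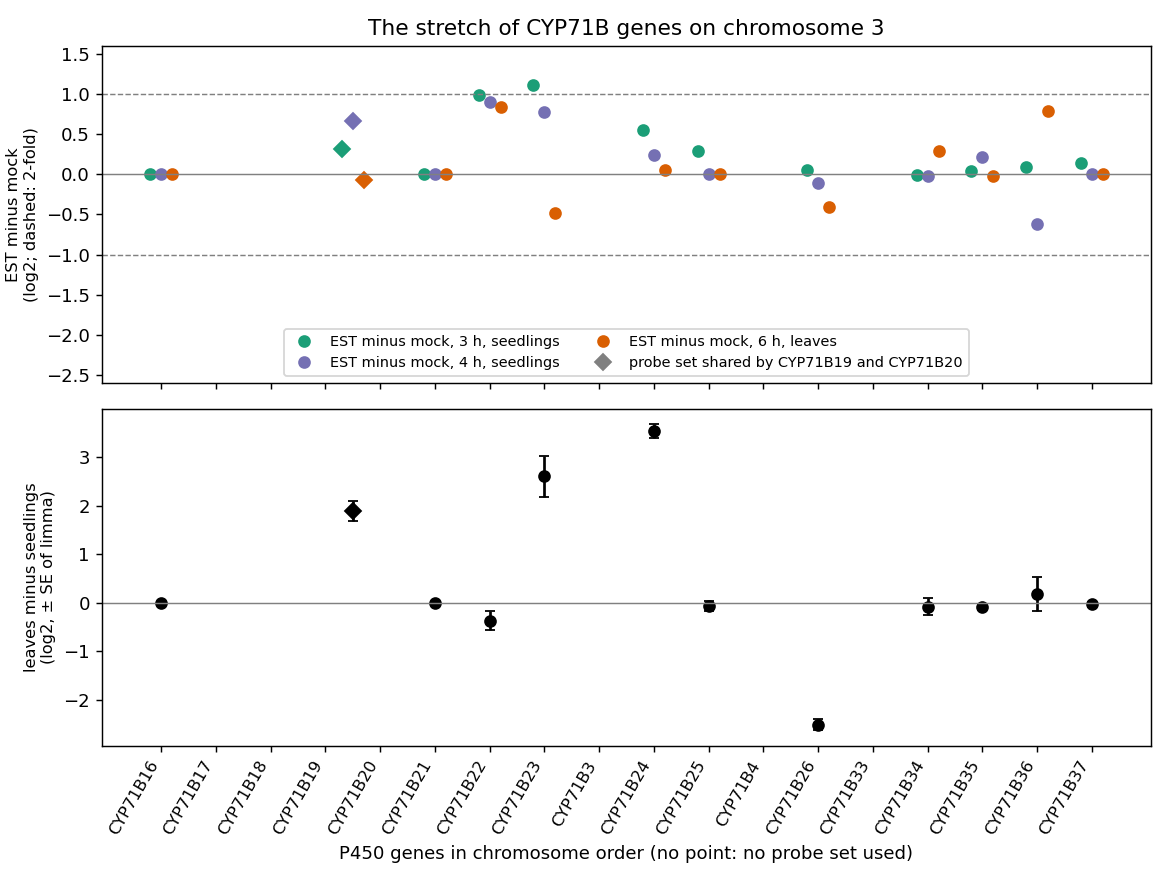
The 18 P450 genes between CYP71B16 and CYP71B37 in chromosome order, with EST minus mock at 3, 4 and 6 h above (log2, dashed lines at 2-fold) and leaves minus seedlings with the SE of limma below. Diamonds show the probe set shared by CYP71B19 and CYP71B20, which was 1.89 higher in leaves. CYP71B22 is near 0 in the lower panel, at -0.37, while CYP71B23 (2.61) and CYP71B24 (3.54) are higher in leaves and CYP71B26 (-2.51) is lower.

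Leaves and seedlings differed far more than EST and mock samples. With treatment as a covariate, limma called 5 of 24 P450 genes at least 2-fold higher in leaves (11.3% of all genes) and 1 at least 2-fold lower (10.9%), at an adjusted p under 0.05 over all genes. Both leaf signals lay above all 4 seedling signals for 6 P450 genes (23.6% of all genes) and below them for 2 (23.5%). Tissue goes here with age, with growth on soil or plates, with the light period and with the hours of treatment, which cannot be told apart, and in whole samples fewer cells of a type and less RNA per cell cannot be told apart either. Of the root markers PYK10 was at 2.17 in both leaf samples and between 12.06 and 12.27 in seedlings, and the other 3 measured markers, all peroxidases, were at 2.63 or below on every array. The summed linear signal of these 4 of 5 root markers was 17.8 in each leaf sample and 4286 to 4961 in seedlings. In seedlings nearly all of this sum was PYK10, so it rests on 1 gene. Of 5 green leaf markers 1 was measured, RCA, the activase of Rubisco, at 14.13 and 13.63 in leaves and 13.44 to 13.67 in seedlings. The part of root tissue in the differences below was not tested.

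CYP71B24 differed most in size among the genes higher in leaves. Its signals were 8.52 with EST and 8.47 in mock leaves, against 5.15, 4.60, 5.15 and 4.91 in EST 3 h, mock 3 h, EST 4 h and mock 4 h seedlings. It averaged 8.50 ± 0.04 in leaves (SD, n = 2) and 4.95 ± 0.26 in seedlings (SD, n = 4), an 11.7-fold difference with a log2 value of 3.54 ± 0.14 (SE) and an adjusted p of 0.00157 in limma. The groups were far apart, and the EST differences were small beside that distance. On the mock arrays alone the difference was 3.72, with an adjusted p of 0.0885.

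CYP71B23 averaged 11.70 ± 0.34 in leaves (SD, n = 2) and 9.09 ± 0.58 in seedlings (SD, n = 4), a log2 difference of 2.61 ± 0.42 (SE) with an adjusted p of 0.0228. Its seedling EST signals of 9.79 and 9.33 lay nearer to the leaves than the mock seedling signals did. The call did not stand without mock seedlings at 3 h, EST seedlings at 4 h, mock seedlings at 4 h or mock leaves, where the adjusted p ran between 0.054 and 0.0901 and the difference between 1.90 and 2.61.

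CYP71B29 (AT1G13100) and CYP71B28 (AT1G13090) are direct neighbours on chromosome 1, and both were higher in leaves. CYP71B29 had signals of 6.65 with EST and 7.20 in mock leaves, against 4.05, 4.66, 4.70 and 4.06 in EST 3 h, mock 3 h, EST 4 h and mock 4 h seedlings. The log2 difference was 2.56 ± 0.33 (SE), 5.89-fold, with an adjusted p of 0.0139. This call too was lost without EST or mock seedlings at 3 h and without either leaf sample, where the adjusted p ran between 0.0549 and 0.103 and the difference between 2.28 and 2.84.

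CYP71B28 had signals of 8.72 with EST and 8.86 in mock leaves, against 6.89, 7.08, 6.93 and 7.03 in the seedlings in the same order. Its log2 difference of 1.81 ± 0.02 (SE), 3.50-fold, had an adjusted p of 0.000306. This gene held its call whichever sample was left out. CYP71B27, a member of the same stretch, was at the minimum on all arrays but that of EST leaves, where it was at 2.20.

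CYP84A4 (AT5G04330), a relative of ferulate 5-hydroxylase that takes part in the synthesis of alpha-pyrones, was more than 0.1 above the minimum in leaves only. Its signals were 3.50 with EST and 4.11 in mock leaves, against 2.15 to 2.16 in the 4 seedling samples. The log2 difference was 1.65 ± 0.16 (SE) with an adjusted p of 0.00784. Since the seedling signals lay within 0.1 of the array minimum, a lower level there could not have been read.

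CYP71B26 (AT3G26290) was the P450 gene that was lower in leaves. Its signals were 8.13 with EST and 8.53 in mock leaves, against 10.91, 10.86, 10.74 and 10.85 in EST 3 h, mock 3 h, EST 4 h and mock 4 h seedlings. It averaged 8.33 ± 0.29 in leaves (SD, n = 2) and 10.84 ± 0.07 in seedlings (SD, n = 4), a log2 difference of -2.51 ± 0.12 (SE), 5.69-fold lower in leaves, with an adjusted p of 0.00198. The 4 seedling samples were nearly level. As for the other genes called, the part of root tissue in this difference was not tested.

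CYP71B5 and CYP71B35 also had leaf signals outside the range of the seedlings but were not called. CYP71B5 averaged 6.32 ± 0.57 in leaves (SD, n = 2) and 5.57 ± 0.07 in seedlings (SD, n = 4), with an adjusted p of 0.0870, and CYP71B35 differed by -0.09. CYP71B22 averaged 6.40 ± 0.59 in leaves and 6.77 ± 0.59 in seedlings, with an adjusted p of 0.293. In this gene the spread within seedlings was mostly that between EST and mock samples. Leaves had 1 EST and 1 mock sample, so their spread is that difference for any gene. The probe set shared by CYP71B19 and CYP71B20 was 3.70-fold higher in leaves, with a log2 difference of 1.89 ± 0.20 (SE) and an adjusted p of 0.00885. These values come from a separate limma fit and adjustment with the 503 probe sets of several genes added.

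**Figure D4:**
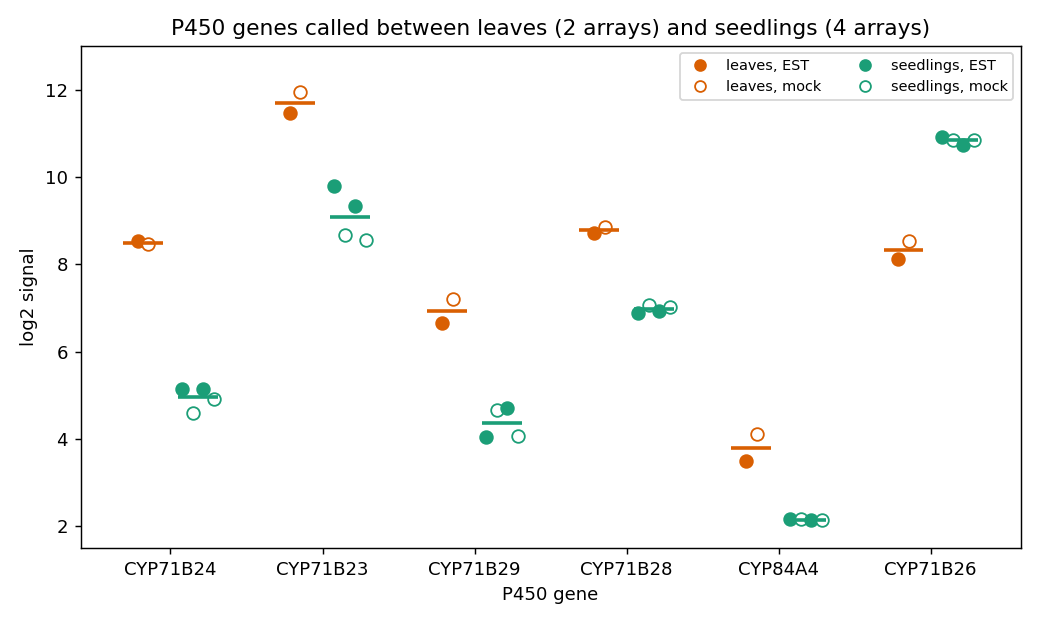
Log2 signals of the 6 P450 genes called between leaves (left, 2 samples) and seedlings (right, 4 samples), with EST samples filled, mock samples open and horizontal lines at the group means. Leaves lie above seedlings for CYP71B24, CYP71B23, CYP71B29, CYP71B28 and CYP84A4, and below them for CYP71B26 (means of 8.33 in leaves and 10.84 in seedlings).

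The test of whether the EST response differed between leaves and seedlings called 3 P450 genes (4.37% of all genes), namely CYP84A4 (-0.60, adjusted p = 0.00108), CYP71B38 (0.18, adjusted p = 0.00161) and CYP71B27 (0.05, adjusted p = 0.0124). In limma the gene's own part of the error of this contrast comes from the seedlings alone, since each treatment has 1 leaf sample. The rest is a prior variance pooled over all genes. For these genes the SD over the 4 seedling signals was 0.0023 or less. For CYP71B27 this SD was 0, so its SE of 0.0016 rests on the prior alone. It equals the SE of CYP718, which was at the minimum on all arrays. The seedling signals of CYP84A4 and CYP71B27 lay within 0.1 of the array minimum. CYP71B38 stood at 2.78 in all 4 seedling samples, at 2.81 with EST and at 2.63 in mock leaves, and CYP71B27 differed from the minimum only in EST leaves, at 2.20. Restricted to genes with a signal of 6 or more on at least 1 array, a filter chosen after seeing the data, the fit called 0 P450 genes. No P450 gene with a signal of 6 or more passed this test, CYP71B5 included, whose responses differed by 0.76 ± 0.12 (SE, adjusted p = 0.197).

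Role lists of P450 genes known under other symbols were looked up as well. The 14 lists, which cover hormone synthesis and breakdown, glucosinolates, camalexin, phenylpropanoids, sterols, terpenoids, cutin and wax and stress-related genes, hold 93 genes, of which 5 had a probe set of their own. Of these 4 are members (CYP71B6, CYP84A4, CYP78A9 and CYP71B31), and the fifth, CYP86B2, a relative of the suberin enzyme CYP86B1, was at 2.15 on all arrays. None of the 9 genes listed as redox partners of P450 enzymes had one.

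The cyclophilins, which match the symbol rule only by name, had no 2-fold difference after EST. CYP71 (AT3G44600), a nuclear cyclophilin with a role in chromatin regulation, had 6.83 with EST and 6.93 in mock seedlings at 3 h, 7.05 with EST and 7.32 in mock seedlings at 4 h, and 6.43 with EST and 6.52 in mock leaves at 6 h. CYP59 (AT1G53720), a cyclophilin with an RNA recognition motif, had 5.89 with EST and 5.91 in mock seedlings at 3 h, 5.55 with EST and 5.70 in mock seedlings at 4 h, and 5.24 with EST and 4.89 in mock leaves at 6 h. Both averaged lower in leaves, by log2 differences of -0.56 and -0.70, without passing the test (adjusted p of 0.0755 and 0.0658).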

How the data were processed

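Total RNA of 6 samples was hybridised to ATH1 arrays, 1 per condition. The authors normalized the arrays with GCRMA (version not stated) and deposited log2 signals per probe set, which were used as deposited. Such values have a floor, and summarised array values do not give the spread of single probes. The number of arrays limits the precision.

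In the platform annotation, 13513 of 22746 probe sets (64 controls left out) had 1 gene, 503 had several and 8730 were not listed. Each gene was represented by its brightest probe set on average, which gave 13356 genes, of which 13286 matched TAIR10.1. No member had several probe sets. The members and the lists were chosen with earlier results of these data known. Chromosomes and the order of neighbouring genes were taken from TAIR10.1, and no coordinates, promoters or proteins were used here.

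EST minus mock was taken per time point and called at 2-fold without a test. Across genes limma 3.58.1 (R 4.3.3) was run with lmFit and eBayes for EST against mock with time point as a block (2 residual degrees of freedom), for leaves against seedlings with treatment as covariate (3) and for the difference of the responses (2), with Benjamini-Hochberg adjustment over all 13356 genes and a threshold of 0.05. Taking time points as replicates follows the study's methods, the block does not. The study's methods give 1 biological replicate for each sample, so no condition was repeated. The p-values thus measure the spread between these samples. Beside sample noise, this spread holds differences between time points and, for EST against mock, between tissues. The fits were tested on simulated data, in which 200 genes of mean signal above 6 were changed. For EST against mock 8.5% of these were recovered at a log2 change of 1 and 25% at 2. For leaves against seedlings the shares were 12.5% and 68.5%, and for the difference of the responses 1.5% and 2%. A gene that was not called was thus not shown to be unchanged. Some genes left unchanged were called too. At log2 changes of 1 and 2 these were 6 and 2 for EST against mock and 0 and 0 for leaves against seedlings. For the difference of the responses they were 5 and 2, so a call by that test alone does not establish a difference. Alternatives were another normalization or centring, other fold thresholds, a filter on dim genes, exchanged or averaged mock seedling arrays, other blocks, a prior trend and samples left out. Genes were named when 2-fold after EST, when called between leaves and seedlings, when among the 5 of highest mean signal in leaves or seedlings, or when on a role list; CYP71B5, CYP71B22, CYP71B27, CYP71B29, CYP71B35, CYP71B36 and CYP71B38 were also singled out after their EST values were seen. Figures were drawn with matplotlib 3.10.9 (Python 3.11.15).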

Additional observations from a re-analysis of the deposited data

Results flagged for a closer look

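The limma test of whether the response to EST differed between leaves and seedlings called 3 P450 genes (4.37% of all genes). The leaf minus seedling value was -0.603 for CYP84A4, 0.177 for CYP71B38 and 0.0537 for CYP71B27. For all 3 the SD over the 4 seedling signals was 0.0023 or less, and each treatment had 1 leaf sample. In seedlings CYP84A4 and CYP71B27 lay within 0.1 of the array minimum. Among genes with a signal of 6 or more on at least 1 array the test called 0 P450 genes.

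The probe set shared by CYP71B19 and CYP71B20, which the main comparisons did not use, was 0.661 higher with EST than in mock seedlings at 4 h, against 0.04 between its mock seedling arrays.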

How the results depend on the processing

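The 1 P450 gene at least 2-fold higher after EST became 5 at a 1.5-fold threshold and 0 at 3-fold, and it became 2 with the mock seedling arrays exchanged and 2 with their mean as control, CYP71B22 being added at 4 h (1.34 and 1.12). The 0 lower genes became 3 at 1.5-fold. EST against mock over the 3 time points called 0 P450 genes under every alternative run, with each time point left out included. For leaves against seedlings the 5 higher genes became 2 with mock arrays only and 3 to 4 with 1 array left out, while the 1 lower gene, CYP71B26, was called each time. With mock arrays only, CYP71B23 (adjusted p = 0.0523), CYP71B24 (0.0885) and CYP71B29 (0.175) were no longer called. The difference of responses, with 3 genes called, gave 0 on genes with a signal of 6 or more (added after seeing the data) and 2 after quantile normalization, where CYP71B38 had an adjusted p of 0.451. Centring each array on its median moved the median of leaves minus seedlings over all genes by 0.14 and no count. Among the results recomputed, no direction was turned. Single EST differences were recomputed only for CYP71B22, CYP71B23 and CYP71B24. Their EST seedling signals all lay above their mock seedling signals, so exchanging or averaging the mock arrays could not turn a seedling direction. In other genes the exchange did turn it, as for CYP71B36 at 3 h (0.09 to -0.49) and CYP71B34 at 4 h (-0.02 to 0.31). For 8 of 24 P450 genes, within 0.1 of the array minimum on all arrays, a decrease could not be seen. After EST this also held for CYP71B25 and CYP71B37, within 0.1 of the minimum on all mock arrays, and for CYP84A4 in seedlings. The mock signals of CYP71B36, CYP71B38 and CYP78A9 lay between 2.20 and 2.84. That is less than 1 above the minimum of 2.15, so a 2-fold decrease could not be seen for these genes either. The same held for CYP71B35 at 4 h and 6 h, where its mock signals were 3.14 and 3.13.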
